A study of Mus musculus with 20 samples.

Results

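The Toll-like receptor genes described here were the 10 mouse genes Tlr1, Tlr2, Tlr3, Tlr4, Tlr5, Tlr6, Tlr7, Tlr8, Tlr9 and Tlr13. They were taken by name and not by their values, although earlier results of these data were known. They came from the 54532 genes listed in both count tables of a C57BL/6 mouse model of colorectal liver metastasis (CRLM). In this model Mc38 cells, a colon adenocarcinoma line of the same strain, reach the liver through the spleen and portal vein and grow as metastases. All mice were wild type, and every group apart from the normal liver had received 1000000 Mc38 cells. Normal liver at day 0 after saline (con) had 2 libraries, and tumor-free tissue away from the metastases at 12 days post-injection (L-con) had 1. Low-content tumor tissue (Lt) and the medium-content tissue Mt3, both from 9 dpi, had 2 libraries each. The medium-content tissues Mt2 and Mt1 of 11 dpi had 2 libraries each, and the high-content tissue of 12 dpi (Ht) had 3. Cells selected from medium-content tumors of 11 dpi by F4/80 or by CD11b microbeads (F4/80+ and CD11b+) had 3 libraries each. Samples of the low-, medium- and high-content groups mixed tumor with the liver around it, and a bead-selected fraction was not a pure cell type.

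Toll-like receptors are sensors of innate immunity that recognise conserved microbial molecules. Those of the cell surface (TLR1, TLR2, TLR4, TLR5 and TLR6) bind lipoproteins, lipopolysaccharide or flagellin, whereas those of endosomes (TLR3, TLR7, TLR8, TLR9 and TLR13) bind nucleic acids. TLR2 works in pairs with TLR1 or TLR6, and TLR4 works with the partners MD-2 (gene Ly96) and CD14. Nearly all of them signal through the adaptor MyD88, TLR3 signals through TRIF (gene Ticam1), and TLR4 uses both. The signal runs over IRAK kinases and the ligase TRAF6 to NF-kappaB and to interferon regulatory factors. In the liver, Kupffer cells, the resident macrophages, meet microbial products arriving from the gut through the portal vein.

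The tissue libraries held 16032085 to 18246623 counts and the sorted-cell libraries 17785496 to 20548370, so that 3 counts corresponded to 0.146 to 0.187 CPM (counts of a gene per 1000000 counts of the library). According to the methods, Ht_1 and Ht_3 hold identical material, so both were added up and Ht was left with 2 samples. A chi-square test of their counts over genes gave 27.6 per degree of freedom, against 26.7 and 12.1 for the other 2 pairs of Ht libraries, so that they differed by more than sampling noise. The sample labels give the tissue mice as male, the methods give female mice aged 6 to 8 weeks, and the labels give no sex for the sorted cells. Xist, the RNA of the inactive X chromosome, had 0 to 3 counts in the tissue libraries and 5547 to 21805 in the sorted-cell libraries, and the Y-linked Ddx3y had 0 counts in every sorted-cell library. Kind of sample, sex and table therefore cannot be told apart wherever sorted cells are set against tissue, and Tlr7, Tlr8 and Tlr13 lie on the X chromosome. Replicate 3 of the CD11b+ cells stood apart: 11% of the 14263 genes tested lay more than 2-fold outside the range of the other 5 sorted libraries, compared with 0.308% to 1.62% for the others. Where leaving it out changed a call or a count, the value without it is given beside the result.

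The genes lie at 8 places of the GRCm38 genome, counting neighbours as 1 place. Tlr1 (chr5:64924679-64933563) and Tlr6 (chr5:64952031-64960097) are neighbours on the minus strand, and so are Tlr8 (chrX:167242696-167264329) and Tlr7 (chrX:167304929-167330558). Tlr13 lies elsewhere on that chromosome (chrX:106143204-106160493, plus strand). Tlr2 is at chr3:83836272-83841767 (minus), Tlr3 at chr8:45395665-45411080 (minus), Tlr4 at chr4:66827584-66930284 (plus), Tlr5 at chr1:182954788-182976044 (plus) and Tlr9 at chr9:106222598-106226883 (plus). The transcripts of Tlr1 and Tlr6 shared 454 windows of 50 bases, 15.3% of those of Tlr1 and 12.5% of those of Tlr6, and a read lying wholly within them matches both genes. The one annotated overlap, a gene antisense to Tlr3, had 0 counts in every library.

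Because 9 of the genes rose together in tumor tissue, the 250 bases upstream of their RefSeq starts (GRCm38.p6) were read for motifs chosen after the data were seen. These were the PU.1 box GAGGAA of the myeloid factor PU.1, the interferon response motif (GAAA, any pair of bases, then GAAA) and the kappaB consensus bound by NF-kappaB, each on both strands. RefSeq starts were at hand for 8 of the 10 genes, all but Tlr4 and Tlr7. The PU.1 box was found upstream of 4 of the 8 (Tlr8, Tlr9, Tlr13 and, at one of its starts, Tlr1), which is 4 of their 10 starts, and of 23.3% of 32841 promoters of this length. The kappaB consensus was found at 2 of the 10 starts (Tlr2 and Tlr3) and at 5% of all promoters, and the interferon motif at 1 of the 10 (1 start of Tlr6) and at 2.98%. The other start of Tlr1 and that of Tlr6 held none of the motifs. Tlr11, a further Toll-like receptor gene that was not called from con to Ht, held a PU.1 box and an interferon motif. Whether the motifs go with the rise was not tested. Shown here, 5′ to 3′ on each gene's own strand, are promoters of 5 genes that rose and that of Tlr5, which fell. The Tlr5 promoter held none of the motifs. Capitals mark the motif. In Tlr2 and Tlr3 it is the kappaB consensus, in Tlr9 and Tlr13 the PU.1 box, and in Tlr8 the PU.1 box read on the other strand. These matches are letters in a window and not measured binding.
Tlr2 (chr3:83841609-83841858, minus): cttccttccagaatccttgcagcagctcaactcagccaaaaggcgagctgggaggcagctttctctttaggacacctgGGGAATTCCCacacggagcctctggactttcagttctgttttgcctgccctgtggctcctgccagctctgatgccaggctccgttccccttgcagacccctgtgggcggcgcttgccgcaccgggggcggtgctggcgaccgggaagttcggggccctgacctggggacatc
Tlr3 (chr8:45410381-45410630, minus): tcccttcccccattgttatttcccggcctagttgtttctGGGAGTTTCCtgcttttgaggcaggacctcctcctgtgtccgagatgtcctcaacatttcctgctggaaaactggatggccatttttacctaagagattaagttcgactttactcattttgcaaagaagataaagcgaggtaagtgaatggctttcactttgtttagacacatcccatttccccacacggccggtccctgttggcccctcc
Tlr9 (chr9:106222348-106222597, plus): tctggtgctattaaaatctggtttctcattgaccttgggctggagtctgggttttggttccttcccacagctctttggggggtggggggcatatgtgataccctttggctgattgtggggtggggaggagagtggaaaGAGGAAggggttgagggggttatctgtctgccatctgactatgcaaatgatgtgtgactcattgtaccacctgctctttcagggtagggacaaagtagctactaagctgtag
Tlr13 (chrX:106143025-106143274, plus): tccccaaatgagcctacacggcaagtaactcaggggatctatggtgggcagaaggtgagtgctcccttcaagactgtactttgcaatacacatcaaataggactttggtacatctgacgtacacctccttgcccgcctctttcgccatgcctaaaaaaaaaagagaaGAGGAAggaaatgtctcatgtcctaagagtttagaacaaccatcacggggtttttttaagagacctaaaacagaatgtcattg
Tlr8 (chrX:167264330-167264579, minus): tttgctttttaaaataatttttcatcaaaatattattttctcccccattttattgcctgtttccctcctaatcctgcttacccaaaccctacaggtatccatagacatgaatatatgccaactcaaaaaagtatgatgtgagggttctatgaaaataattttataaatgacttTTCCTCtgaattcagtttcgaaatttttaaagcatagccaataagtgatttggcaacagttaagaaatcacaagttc
Tlr5 (chr1:182954538-182954787, plus): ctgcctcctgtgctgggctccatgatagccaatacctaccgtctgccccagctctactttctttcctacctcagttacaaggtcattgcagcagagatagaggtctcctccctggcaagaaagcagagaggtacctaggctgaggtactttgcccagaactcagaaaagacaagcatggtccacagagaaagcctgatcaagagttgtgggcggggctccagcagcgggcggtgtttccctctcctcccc

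Over the whole course from normal liver to Ht, 9 of the 10 receptor genes rose and Tlr5 fell. This comparison sets liver at day 0 against tissue of high tumor content at 12 dpi. Tumor content and day after injection cannot be told apart in it. The same holds for the steps from con to Lt and from the medium-content groups to Ht. All 10 passed the threshold (edgeR's quasi-likelihood test, Benjamini-Hochberg adjusted p of at most 0.05 and at least a doubling or halving), in a comparison where 49.9% of 17187 genes did. By direction, 25.8% of the genes were called higher and 24.1% lower. For the 10 together the median change was 2.87 on the log2 scale, beside 0.09 over all genes tested. All 10 genes passed the filter on low counts, and con and Ht did not overlap for any of them, as was the case for 45.2% of all genes upward and 40.4% downward. In bulk tissue, fewer cells of a type and less RNA per cell cannot be told apart.

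The widest rise was that of an endosomal receptor. Tlr9, the sensor for unmethylated CpG DNA, was at 1.33 and 0.661 CPM in con, with Lt at 4.66 and 17.5, Mt3 at 8.56 and 16.5, Mt2 at 14.0 and 20.2, Mt1 at 16.0 and 24.8 and Ht at 16.8 and 24.5. The con libraries lay below every tumor library, while each tumor group overlapped the next in the order of means. From con to Ht its log2 fold change was 4.38 ± 0.72 (SE, adjusted p = 0.000746), the widest of the family. Tlr13, which senses a stretch of bacterial 23S ribosomal RNA, was at 5.75 and 3.14 CPM in con, with Lt at 16.2 and 28.6, Mt3 at 16.7 and 28.8, Mt2 at 26.8 and 43.2, Mt1 at 38.8 and 42.8, and Ht at 48.6 and 60.2. It rose by 3.62 ± 0.43 on the log2 scale (adjusted p = 0.000208), and both Ht samples lay above all other tissue samples.

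Tlr7, a receptor for single-stranded RNA, was at 6.28 and 2.48 CPM in con, with Lt at 10.6 and 18.1, Mt3 at 11.4 and 19.9, Mt2 at 17.0 and 24.2, Mt1 at 25.2 and 26.6, and Ht at 34.8 and 41.4. It too had no overlap between Ht and any other group, and its log2 fold change from con to Ht was 3.13 ± 0.46 (adjusted p = 0.000454). Its neighbour Tlr8 stood at 4.87 and 2.23 CPM in con but 22.2 and 30.9 in Ht, a log2 fold change of 2.91 ± 0.42 (adjusted p = 0.000422). Tlr3, the receptor for double-stranded RNA, had the smallest rise. It was at 7.35 and 8.68 CPM in con, with Lt at 15.1 and 20.1, Mt3 at 16.8 and 17.0, Mt2 at 18.9 and 23.0, Mt1 at 19.97 and 28.5, and Ht at 23.5 and 28.9, and its log2 fold change was 1.71 ± 0.24 (adjusted p = 0.000371).

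**Figure D1:**
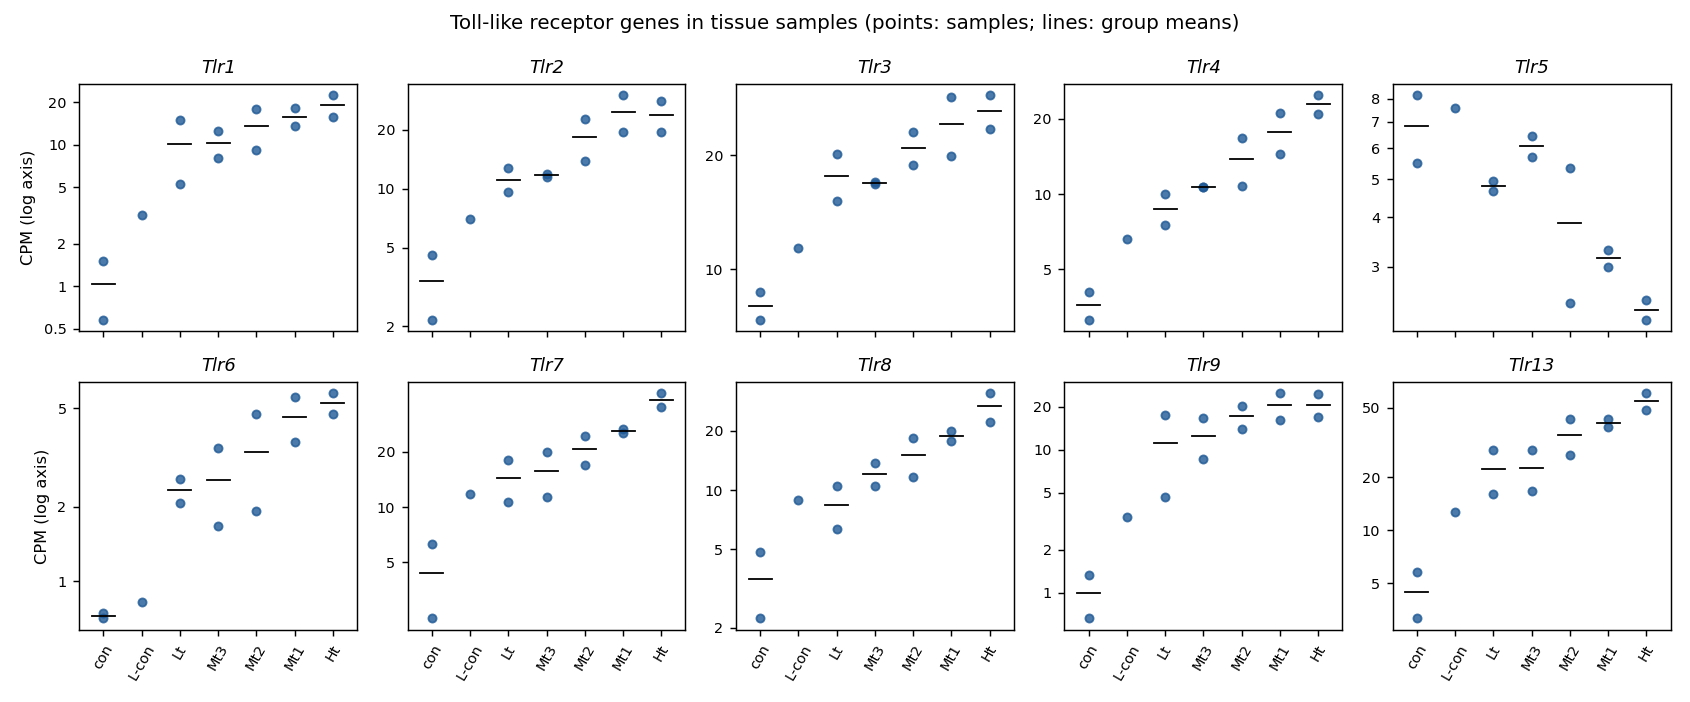
Level of each Toll-like receptor gene in CPM (log axis, with its own range in each panel) in the tissue groups, ordered by tumor content. Points are samples and lines group means, and Ht_1 and Ht_3 are summed. For 9 genes the con samples lie lowest, at 0.579 to 8.68 CPM, and for Tlr5 the mean is lowest in Ht (2.20 and 2.47 CPM), whose samples overlap Mt2.

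Among the surface receptors, Tlr1 rose furthest. It was at 1.505 and 0.579 CPM in con, with Lt at 5.30 and 15.0, Mt3 at 8.10 and 12.6, Mt2 at 9.25 and 17.9, Mt1 at 13.5 and 18.2, and Ht at 15.7 and 22.6, with a log2 fold change from con to Ht of 4.20 ± 0.66 (adjusted p = 0.000585). Tlr2, which pairs with the products of Tlr1 and Tlr6, went from con levels of 4.602 and 2.15 CPM to Ht levels of 19.5 and 28.01 (log2 fold change 2.82 ± 0.41, adjusted p = 0.00046). It was at 9.60 and 12.7 CPM in Lt, and its highest sample was in Mt1, at 19.3 and 30.0 CPM, which overlapped Ht. Tlr6 was at 0.708 and 0.744 CPM in con, from only 8 and 9 counts, and reached 4.75 and 5.74 in Ht (log2 fold change 2.84 ± 0.55, adjusted p = 0.00178). Tlr4, the receptor for lipopolysaccharide, was at 4.07 and 3.14 CPM in con, with Lt at 7.52 and 9.96, Mt3 at 10.6 and 10.7, Mt2 at 10.7 and 16.7, Mt1 at 14.5 and 21.0, and Ht at 21.0 and 24.9. Its log2 fold change of 2.67 ± 0.30 had the smallest adjusted p of the family (0.000169).

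Tlr5, the receptor for bacterial flagellin, went the other way. It was at 5.49 and 8.19 CPM in con, with Lt at 4.94 and 4.66, Mt3 at 6.42 and 5.70, Mt2 at 5.34 and 2.42, Mt1 at 3.30 and 2.997, and Ht at 2.20 and 2.47. Both con samples lay above both Ht samples, and Mt3 overlapped con. From con to Ht it fell by 1.55 ± 0.37 on the log2 scale (adjusted p = 0.00535). With libraries scaled to their total counts in place of TMM, Tlr5 stood at -0.37 and did not pass, while the median of all genes moved from 0.09 to 1.28 and the other 9 genes still passed as higher. Under that scaling 51.3% of all genes were called higher and 13.1% lower. The Tlr11 and Tlr12 genes, the remaining Toll-like receptors of the mouse, were not called, with log2 fold changes of -0.43 ± 0.71 (adjusted p = 0.616) and -0.78 ± 0.39 (adjusted p = 0.106). Tlr11 stayed at 0.410 to 2.38 CPM in every tissue sample.

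Markers of several cell types moved along the same axis. Of 10 macrophage markers 8 were higher in Ht than in con, and their summed level was 495 to 747 CPM in con and 3030 to 3090 in Ht, with none of the 10 at 0. All 7 hepatocyte markers tested were lower, summing to 158000 to 183000 CPM in con and 3110 to 4430 in Ht. Of 6 Kupffer cell markers 3 were lower, with a sum of 323 to 433 CPM in con and 77.8 to 128 in Ht, and Clec4f, a lectin of Kupffer cells, was at 154 to 192 CPM in con and 24.8 to 43.4 in Ht. Of 8 neutrophil markers, 7 were tested and 3 were higher. Their sum was 3.47 to 4.96 CPM in con, with 3 of 8 at or under 3 counts, and 174 to 190 in Ht. Most of the sum in Ht was Mmp9, at 158 to 170 CPM, whereas S100a8 was at 1.77 to 2.44 and S100a9 at 1.32 to 2.09. Of 8 monocyte markers 7 were higher, with a median log2 fold change of 4.13 beside 2.46 for the macrophage markers. Their sum, 1750 to 1760 CPM in con and 1430 to 1490 in Ht, was mostly Fn1, which hepatocytes make as well (1732 to 1746 and 1239 to 1244 CPM). Of 8 endothelial markers 6 were lower, with sums of 533 to 696 CPM and 195 to 212, and so were 3 of 5 epithelial markers tested, with sums of 512 to 562 CPM and 110 to 212. Of 8 stroma markers 5 were higher and 1 lower, with sums of 333 to 478 CPM and 5910 to 6710. Of 6 B cell markers 3 were higher (sums of 7.52 to 12.9 CPM in con and 35.6 to 49.6 in Ht), of 6 T and NK cell markers 3 (2.73 to 8.76 and 16.8 to 22.9), of 6 markers of plasmacytoid dendritic cells 2 (253 to 271 and 519 to 577) and of 6 of other dendritic cells 2 (14.8 to 20.3 and 28.2 to 30.7). In the B cell, T and NK cell and both dendritic cell lists none of the markers was at 0 in both samples of con or Ht, whereas the neutrophil marker Ly6g was at 0 in both samples of con. The part of these cell types in the levels of the receptor genes was not tested.

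By mean level the con group was the lowest of the 6 tissue groups with replicates for 9 of the 10 genes, as for 41% of all genes tested, and Ht was the highest for 8, as for 36.3%, the exceptions being Tlr5 in both counts and Tlr2, whose mean was highest in Mt1. Of the 50 pairs of groups that neighboured each other in these orders, 32 overlapped in their samples, so that most single steps between neighbours were not larger than the spread. Over all genes 68.7% of such pairs overlapped. Tlr4 and Tlr7 had the fewest overlapping neighbours, 2 of 5 each. For Tlr7 these were Lt with Mt3 and Mt3 with Mt2, and for Tlr4 they were Mt2 with Mt1 and Mt1 with Ht.

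The first step, from con to Lt, compares normal liver with tissue of small metastases at 9 dpi. In this step 7 of the 10 genes were called higher (Tlr1, Tlr2, Tlr3, Tlr4, Tlr7, Tlr9 and Tlr13) and none lower, where 12.7% of all genes tested were called, 12.4% higher. The log2 fold changes were widest for Tlr9 (3.49 ± 0.72, adjusted p = 0.012), Tlr1 (3.29 ± 0.65, adjusted p = 0.0105) and Tlr13 (2.34 ± 0.42, adjusted p = 0.00704). The other 4 lay between 1.14 for Tlr3 and 1.73 for Tlr2. Tlr6 (1.68, adjusted p = 0.0847) and Tlr8 (1.25, adjusted p = 0.0773) were above con in both Lt samples without passing, and Tlr5 had a log2 fold change of -0.51 ± 0.37 (adjusted p = 0.385). All 9 genes that were higher on average had both Lt samples above both con samples, as had 37.2% of all genes tested, and 0.256% of all genes were called lower. DESeq2 called 8, adding Tlr8, and 14.7% of all genes. The count rested on single libraries. Without replicate 2 of Lt or without replicate 2 of con, 0 of the 10 passed, where 5.35% and 4.29% of all genes did, and without replicate 1 of con 5 did (Tlr1, Tlr2, Tlr7, Tlr8 and Tlr13), where 8.32% of all genes did. The 7 genes kept their direction, with log2 fold changes of 0.91 to 2.35 without replicate 2 of Lt and of 1.09 to 3.05 without replicate 2 of con. In these fits the single library left in a group is assumed to vary like the other groups. Replicate 2 of Lt had the higher level of the 2 for 9 of the 10 genes, and its macrophage markers summed to 2110 CPM against 1350 in replicate 1 (joint scaling of all libraries). Markers of several cell types were called higher from con to Lt as well. These were 6 of 10 for macrophages (sums of 495 to 747 CPM in con and 1290 to 2040 in Lt), 6 of 8 for monocytes (1750 to 1760 and 1910 to 1950), 5 of 7 tested for neutrophils (3.47 to 4.96 and 50.4 to 79.8) and 5 of 8 for stroma (333 to 478 and 1570 to 3010). They were also 3 of 6 for plasmacytoid dendritic cells, 2 of 6 for B cells, 1 of 6 for other dendritic cells and 1 of 5 tested for epithelium, and 0 for Kupffer, T and NK, endothelial and hepatocyte markers. None was called lower, and the part of these cells in the receptor levels was not tested.

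The later steps brought no call among the 10. From Lt to Mt (the mean of Mt3, Mt2 and Mt1) 0 of the genes passed, as did 0% of all genes tested. At an unadjusted p under 0.05 there were 2 of the 10, near the 19.1% of all genes tested. These were Tlr4 (log2 fold change 0.65 ± 0.24, adjusted p = 0.222) and Tlr8 (0.84 ± 0.33, adjusted p = 0.229). DESeq2 called 0 of the 10 and 1.4% of all genes. From Mt to Ht 0 of the 10 passed, where 14.9% of all genes tested did, nearly all of them lower (13.4% lower, 1.5% higher). That share rested on both Ht samples, since without either of them 0 of all genes tested were called, with the single Ht sample left assumed to vary like the other groups. From Mt to Ht 5 of the 10 had an unadjusted p under 0.05: Tlr4, Tlr5, Tlr7, Tlr8 and Tlr13. Of all genes tested, 40.6% had such a p, and 17.2% were called by DESeq2. Tlr4 had an adjusted p of 0.0383 with a log2 fold change of 0.74 ± 0.21, short of a doubling. Tlr7 (0.91 ± 0.31), Tlr8 (0.81 ± 0.29) and Tlr13 (0.77 ± 0.29) lay higher in both Ht samples than in all 6 Mt samples, which 18.7% of all genes did, with adjusted p of 0.0636, 0.0687 and 0.0836. Tlr5 had a log2 fold change of -0.84 ± 0.31 (adjusted p = 0.0771). DESeq2 called 0, total-count scaling 4 (Tlr4, Tlr7, Tlr8 and Tlr13, all higher), and the fit without replicate 2 of Mt2 called 2, Tlr7 higher and Tlr5 lower. Under total-count scaling 15.1% of all genes were called higher and 10.3% lower, with their median at 0.55 in place of 0, and without replicate 2 of Mt2 20.8% of all genes were called. In the same step 5 of 6 Kupffer cell markers and all 7 hepatocyte markers tested were called lower, and 0 of 10 macrophage markers was called. Without either Ht sample 0 of the Kupffer cell and hepatocyte markers were called.

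**Figure D2:**
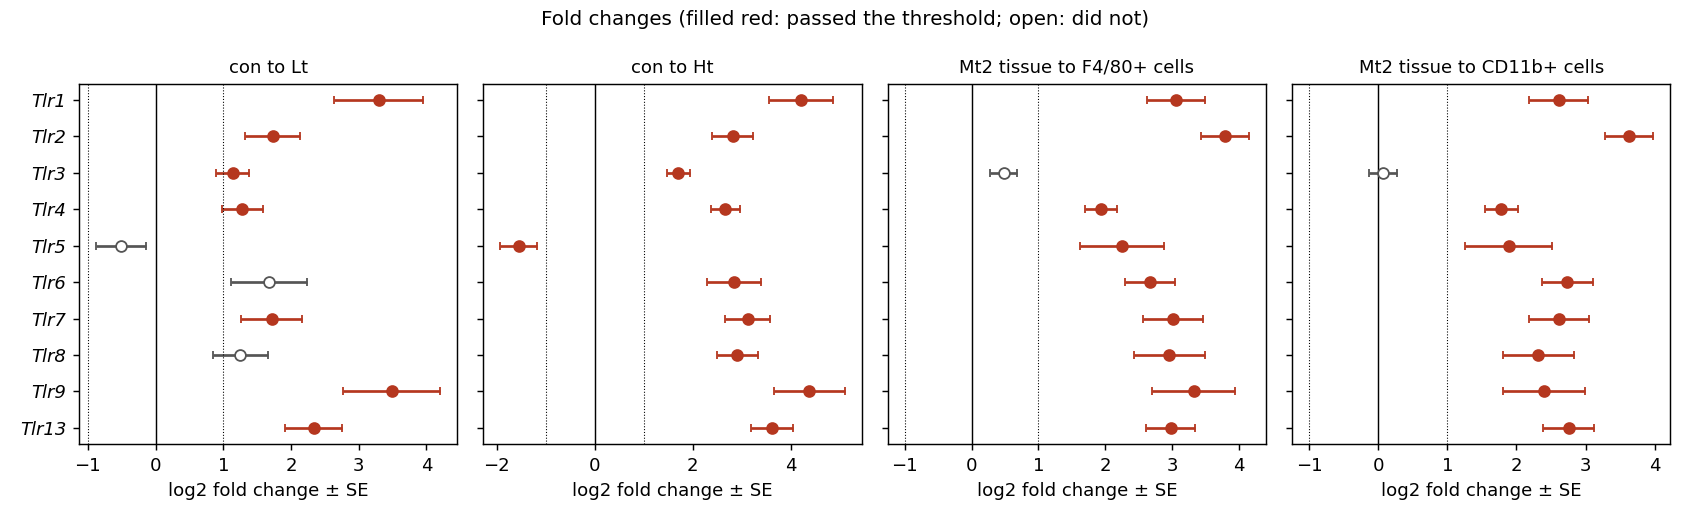
Log2 fold change ± SE of each gene from con to Lt, from con to Ht, and from Mt2 tissue to F4/80+ and to CD11b+ cells. Filled red points passed the threshold, open points did not, and dotted lines mark a log2 fold change of 1 in either direction. Tlr5 lies at -1.55 from con to Ht but at 2.25 and 1.89 in the sorted cells, and Tlr3 lies at 1.71 from con to Ht but at 0.48 and 0.07 in the sorted cells.

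The sorted cells of 11 dpi metastases were compared with Mt2 tissue, the kind of tumor from which the methods say they were prepared. In the F4/80+ cells 9 of the 10 genes were higher than in Mt2 tissue, and the same 9 were higher in the CD11b+ cells. Of all 18407 genes tested, 42.3% were called in the first comparison (17.2% higher) and 43.9% in the second (17.6% higher), and both use the same Mt2 samples. Tlr3 alone did not pass in either. All 10 lay above Mt2 tissue in every F4/80+ library, as did 33.5% of all genes, and 8 of the 10 in every CD11b+ library (29.4% of all genes). The median log2 fold change of the 10 was 2.97 in F4/80+ and 2.51 in CD11b+ cells, beside -0.12 and -0.08 over all genes. The levels that follow are CPM from the joint scaling of tissue and sorted cells.

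Tlr2 was enriched most. It was at 14.6 and 23.9 CPM in Mt2 tissue, at 322, 226 and 253 in F4/80+ and at 206, 233 and 276 in CD11b+ cells, log2 fold changes of 3.79 ± 0.36 (adjusted p = 8.47e-07) and 3.63 ± 0.35 (adjusted p = 9.2e-07). Its partner Tlr1 was at 9.70 and 18.8 CPM in Mt2, at 95.5, 139 and 122 in F4/80+ and at 93.0, 88.4 and 80.9 in CD11b+ cells (3.05 ± 0.43 and 2.61 ± 0.42). Tlr6 was at 2.02 and 4.95 CPM in Mt2, at 22.4, 24.6 and 20.6 in F4/80+ and at 25.2, 26.1 and 19.4 in CD11b+ cells. No sorted library overlapped Mt2 tissue for these 3 genes. Tlr4 was the least enriched of the 9 in F4/80+ cells, at 53.5, 57.0 and 55.5 CPM against 11.3 and 17.6 in Mt2 (1.94 ± 0.24, adjusted p = 9.03e-06), and stood at 53.9, 53.6 and 41.5 CPM in CD11b+ cells (1.78 ± 0.24).

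The endosomal receptors apart from Tlr3 were also high in both fractions. Tlr13 was at 28.1 and 45.2 CPM in Mt2, at 280, 296 and 292 in F4/80+ and at 272, 302 and 168 in CD11b+ cells (2.98 ± 0.37 and 2.76 ± 0.37). Tlr7 was at 17.8 and 25.4 CPM in Mt2, at 195, 171 and 158 in F4/80+ and at 161, 170 and 66.4 in CD11b+ cells (3.01 ± 0.45 and 2.61 ± 0.44). Tlr8 was at 12.2 and 19.4 CPM in Mt2, at 125, 130 and 115 in F4/80+ and at 114, 99.6 and 23.5 in CD11b+ cells (2.96 ± 0.54 and 2.32 ± 0.52). For Tlr7 and Tlr8 the lowest sorted value was that of CD11b+ replicate 3. Tlr9 was at 14.7 and 21.2 CPM in Mt2, at 139, 207 and 195 in F4/80+ and at 121, 131 and 33.7 in CD11b+ cells (3.33 ± 0.62 and 2.41 ± 0.59). In all 4 genes that library was the lowest of the sorted ones, and it still lay above both Mt2 samples. Without it the log2 fold changes in CD11b+ cells were 2.97 for Tlr13, 2.94 for Tlr7, 2.75 for Tlr8 and 2.81 for Tlr9, and all 4 were still called.

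Tlr3 was the one member not called in the sorted cells. It was at 19.8 and 24.1 CPM in Mt2, at 27.1, 33.6 and 31.2 in F4/80+ and at 25.4, 22.2 and 21.6 in CD11b+ cells. The fitted difference from Mt2 was 0.48 ± 0.20 on the log2 scale in the former (adjusted p = 0.0562) and 0.07 ± 0.20 in the latter (adjusted p = 0.783), and without replicate 1 of Mt2 the latter was -0.065. Every F4/80+ library lay above both Mt2 samples, whereas the CD11b+ libraries overlapped them. Whether its fold change differed from that of the other members was not tested.

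Tlr5, the one member that fell from con to Ht, was higher in sorted cells than in Mt2 tissue. It was at 5.60 and 2.54 CPM in Mt2, at 19.2, 19.99 and 18.0 in F4/80+ and at 17.7, 24.3 and 2.50 in CD11b+ cells. The log2 fold change was 2.25 ± 0.63 in F4/80+ (adjusted p = 0.00791) and 1.89 ± 0.62 in CD11b+ cells (adjusted p = 0.0188). The lowest CD11b+ library overlapped Mt2 tissue, and without this library, replicate 3, the log2 fold change in CD11b+ cells was 2.39 (adjusted p = 4.14e-05). The call was lost in both fractions without replicate 2 of Mt2 (1.81 and 1.45), and in CD11b+ cells also without their replicate 2 (1.36) or with only the 2 groups in the fit (1.90). Tlr11 and Tlr12 were called higher in both fractions. Tlr12 was at 7.75 and 5.20 CPM in Mt2, at 39.2, 55.9 and 39.1 in F4/80+ and at 26.8, 20.2 and 89.1 in CD11b+ cells. In CD11b+ cells against Mt2 its log2 fold change was 2.81 ± 0.56, and without replicate 3 it was 1.87 and still called, whereas the call of Tlr11 was lost (2.06 with that library, 1.45 with an adjusted p of 0.088 without it).

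**Figure D3:**
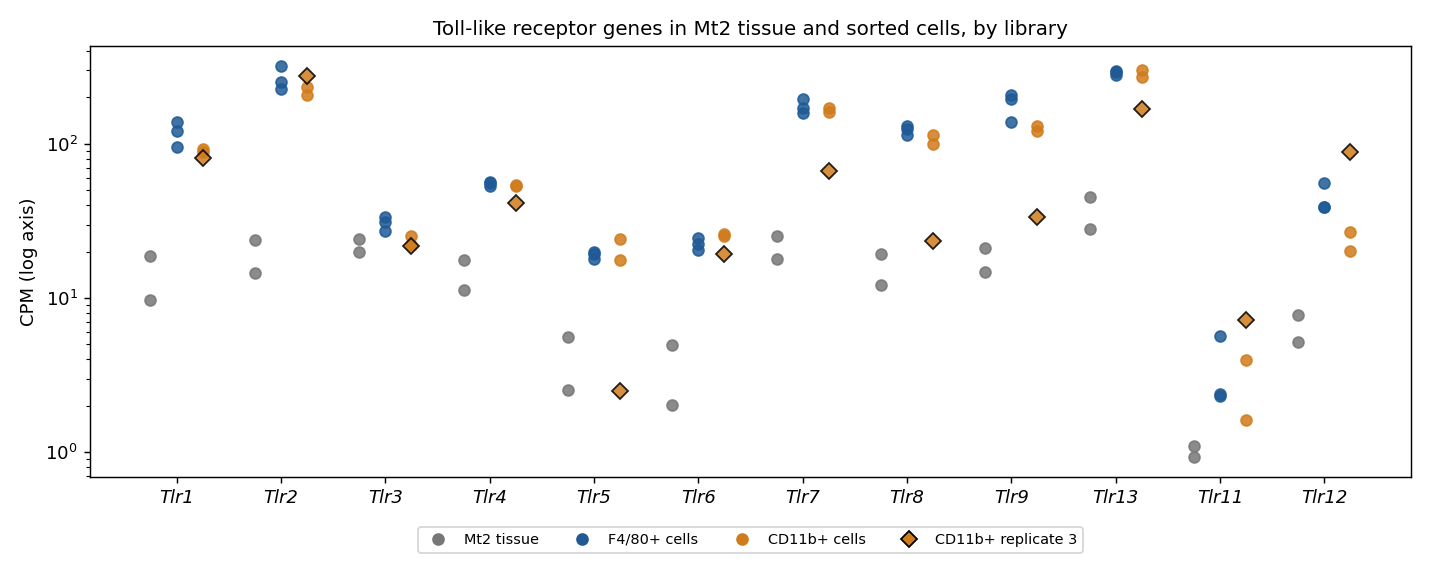
Level in CPM (log axis) of the 10 genes and of Tlr11 and Tlr12 in Mt2 tissue (grey), F4/80+ cells (blue) and CD11b+ cells (orange). Each point is a library, and the outlined diamond is replicate 3 of the CD11b+ cells. The diamond lies far below the other orange points for Tlr5, Tlr7, Tlr8 and Tlr9, at 2.50, 66.4, 23.5 and 33.7 CPM, and above them for Tlr12, at 89.1 CPM.

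The beads and the markers were checked against each other. Adgre1, the gene of F4/80, was at 691 to 784 CPM in F4/80+ and at 507 to 547 in CD11b+ cells, beside 101.1 to 124 in Mt2 tissue. Itgam, the gene of CD11b, was at 244 to 295 CPM in F4/80+ and at 350 to 439 in CD11b+ cells, beside 11.6 to 36.0 in Mt2. Thus each fraction carried the marker of the other. All 10 macrophage markers were called higher in each fraction than in Mt2 tissue, and their sum was 20700 to 22100 CPM in F4/80+ and 19100 to 31600 in CD11b+ cells, beside 1900 to 2700 in Mt2. Clec4f ranged from 236 to 1044 CPM in F4/80+ cells and from 9.34 to 36.1 in CD11b+ cells. Neutrophil markers summed to 175 to 502 CPM in F4/80+ and to 1260 to 3670 in CD11b+ cells, beside 110 to 163 in Mt2, with none of the 8 at 0 in a fraction, and 5 of 8 and 7 of 8 were called higher than in Mt2 (1 lower in F4/80+). Of 8 monocyte markers 6 were higher in F4/80+ (a sum of 2040 to 2980 CPM) and 7 in CD11b+ cells (3240 to 5060), beside 1850 to 2700 in Mt2. Of 6 markers of conventional dendritic cells 1 was higher and 1 lower in F4/80+ (14.6 to 30.6 CPM), and 4 were higher in CD11b+ cells (55.3 to 142), or 3 without replicate 3, beside 24.8 to 31.4 in Mt2. Of 6 B cell markers 2 were higher in each fraction (221 to 249 and 201 to 373 CPM), beside 32.7 to 51 in Mt2. Of 6 T and NK cell markers 1 was higher in each. Kupffer cell markers had 1 of 6 higher in F4/80+ and 5 of 6 lower in CD11b+ cells, or 4 without replicate 3. All 7 hepatocyte and all 8 stroma markers tested were lower in both fractions, as were 3 and 5 of 8 endothelial, 1 and 3 of 6 plasmacytoid dendritic (2 in the latter without replicate 3), and 5 and 4 of 5 epithelial markers. The part of these cells in the levels of the receptor genes was not tested.

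Between the fractions, F4/80+ against CD11b+, 0 of the 10 genes were called, where 0.0771% of 14263 genes tested were (11 genes). Without replicate 3 of the CD11b+ cells 0.927% of all genes were called, and still 0 of the 10. Without replicate 1 or replicate 2 of the F4/80+ cells, or without replicate 2 of the CD11b+ cells, 0 of all genes were called. At an unadjusted p under 0.05 there was 1 of the 10, near the 10.5% of all genes tested. This was Tlr3, with a log2 fold change of 0.36 ± 0.15 (adjusted p = 0.469). DESeq2 called 0 of the 10 and 2.1% of all genes. The widest difference was that of Tlr9 (0.87 ± 0.45, adjusted p = 0.496), followed by Tlr8 (0.60 ± 0.48, adjusted p = 0.6). Both rested in part on replicate 3 of the CD11b+ cells. Without it the values were 0.47 for Tlr9 (adjusted p = 0.256) and 0.17 for Tlr8 (adjusted p = 0.51), and Tlr4, Tlr5 and Tlr13 stood at -0.001, -0.18 and -0.033 in place of 0.11, 0.31 and 0.17.

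Replicate 3 of the CD11b+ cells was unlike its group in these very genes. Relative to the mean of replicates 1 and 2 on the CPM scale, it held 0.119 of the level of Tlr5, 0.22 of Tlr8, 0.268 of Tlr9, 0.402 of Tlr7 and 0.586 of Tlr13. Tlr1, Tlr3, Tlr4 and Tlr6 stood at 0.757 to 0.909 of that mean, Tlr2 at 1.26, Tlr11 at 2.62 and Tlr12 at 3.79. Its macrophage markers summed to 31600 CPM against 19600 and 19100 in the others, and its neutrophil markers to 3670 against 1280 and 1260. Sums were also higher for plasmacytoid dendritic cells (889 against 502 and 474), other dendritic cells (142 against 92 and 55.3) and B cells (373 against 243 and 201). The Kupffer cell sum was lower (56 against 94.6 and 124). Those of monocytes (3510 against 3240 and 5060) and of T and NK cells (15.4 against 24.8 and 14.1) lay between. Its Xist counts were 5547, the lowest of the sorted libraries. The part of these differences was not tested.

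The make-up of the family, corrected for gene length, is given as a description without a test. The summed FPKM (CPM per kilobase of gene length) of the 10 genes was 10.4 and 7.49 in con, 20.9 and 36.1 in Lt, 54.7 and 71.5 in Ht, 340 to 350 in F4/80+ and 205 to 307 in CD11b+ cells. In con, Tlr3 (mean share 18.6%) and Tlr5 (17.6%) had the largest mean shares of this sum, and both led in replicate 2 only, where they held 23.2% and 23.8%. In replicate 1 they held 14.0% and 11.4%, below Tlr7 with 15.3% and Tlr2 with 15.2%. In Ht, Tlr13 held 21.1%, Tlr7 15.7% and Tlr2 13.1%, and Tlr5 had 0.82%. In sorted cells Tlr2 led, with 25.6% ± 4.75 in F4/80+ and 31.2% ± 11.8 in CD11b+ cells (SD, n = 3), followed by Tlr13 with 19.4% ± 0.655 and 21.3% ± 1.95. The lead in CD11b+ cells came mostly from replicate 3, in which Tlr2 held 44.7% and Tlr13 19.1%. In replicates 1 and 2 Tlr2 held 23.6% and 25.2% and Tlr13 21.7% and 22.9%. Tlr3 had 1.70% of the sum in both fractions, where it had 10.1% in Mt2 tissue. Tlr4 held 2.88% to 7.58% and Tlr6 1.25% to 2.59% in the 9 groups.

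**Figure D4:**
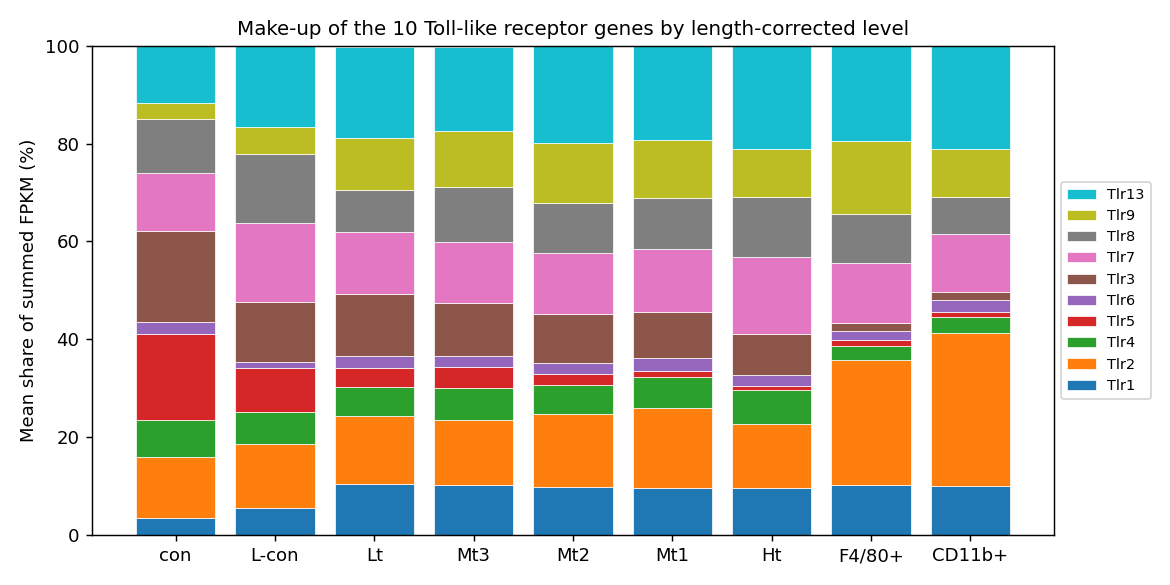
Mean share of each gene in the summed FPKM of the 10 genes, in percent, for the 7 tissue groups and both sorted fractions. The bars add to 100% apart from rounding. Tlr3 (brown) and Tlr5 (red) hold 18.6% and 17.6% in con but 8.41% and 0.82% in Ht, and Tlr2 (orange) is widest in the sorted cells.

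The genes closest in pattern to each member were sought over the 13 tissue samples. Likeness was the root mean square difference of log2(CPM + 1) after centring each gene on its mean, over 12275 genes, and is a description without a test. The difference was not scaled to a gene's own level or spread, so that its size also depends on these. Tlr13 had the closest neighbour of all, Pld4, an exonuclease of the endolysosome, at a difference of 0.078. Tlr5 was closest to Ttc30b (0.084), Tlr3 to Rnf213 and Cmpk2 (both 0.105), Tlr1 to Evi2a (0.12) and Tlr4 to Lfng (0.129). Tlr7 was closest to C1qb, a complement gene of macrophages (0.153), and also had Tlr8 among its 3 nearest genes (0.18), as Tlr9 had Tlr1 (0.192). Tlr6 was closest to Donson (0.154), Tlr2 to Trpv2 (0.169), Tlr8 to P2rx7 (0.177) and Tlr9 to Cdc6 (0.19). Over the tissue groups tumor content largely rises with the day after injection, and many genes follow that order alike. The part of either was not tested.

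The partners of the receptors did not move as a block. Of 9 co-receptors, ligand carriers and chaperones, 4 were higher and 2 lower in Ht than in con, where 25.8% and 24.1% of all genes were. Cd14, which hands lipopolysaccharide to TLR4, had a log2 fold change of 2.21 ± 0.36 (adjusted p = 0.000761), and Unc93b1, the chaperone that carries endosomal receptors out of the endoplasmic reticulum, 1.95 ± 0.25 (adjusted p = 0.000257). Cd180 and Ly86, a receptor pair related to TLR4 and MD-2, rose by 3.08 ± 0.46 and 3.26 ± 0.49. Ly96 itself stood at -0.66 ± 0.27 (adjusted p = 0.0593). Lbp, the lipopolysaccharide-binding protein made by the liver, fell by 4.20 ± 0.55 on the log2 scale (adjusted p = 0.00029), and the scavenger receptor Cd36 fell by 2.56 ± 0.43. In the F4/80+ cells 6 of the 9 were higher than in Mt2 tissue (17.2% of all genes), led by Cd14 (4.79 ± 0.46, adjusted p = 1.02e-06), and Lbp was lower (-4.15 ± 0.46). Ly96 was among the 6, at 1.09 ± 0.30 (adjusted p = 0.00615), as was Unc93b1 at 3.18 ± 0.26.

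Among the adaptors and kinases fewer genes were called from con to Ht than the 49.9% of all genes, and this difference was not tested. Of 5 adaptors 1 was called higher, Ticam2, the bridging adaptor of TLR4 (3.51 ± 0.45, adjusted p = 0.00027), which had only 3 and 4 counts in con. Myd88 had a log2 fold change of 0.96 ± 0.19 (adjusted p = 0.00177), just short of a doubling, and Ticam1 one of -0.67 ± 0.35 (adjusted p = 0.116). Of 13 kinases, ligases and partners, 2 were higher (Tab1 at 1.198 ± 0.28 and Traf3 at 1.04 ± 0.19) and 3 lower (Chuk, Ikbkg and Tab2). Chuk and Ikbkg, 2 subunits of the kinase complex that frees NF-kappaB, fell by 2.28 ± 0.32 and 2.25 ± 0.32. In F4/80+ cells against Mt2 tissue Myd88 was higher by 1.79 ± 0.19 on the log2 scale (adjusted p = 3.11e-06), Pik3ap1 by 2.37 ± 0.30 and Ticam2 by 2.58 ± 0.26, whereas Ticam1 stood at 0.96 ± 0.29 (adjusted p = 0.0118).

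The last lists hold the transcription factors, the negative regulators and the genes that the receptors are known to induce. Of 8 factors 5 were higher and 1 lower from con to Ht, where 25.8% of all genes were called higher and 24.1% lower. The highest were Nfkb2 (3.13 ± 0.44, adjusted p = 0.000383), Relb (2.86 ± 0.48) and Irf7 (2.18 ± 0.25), and Irf3, the factor downstream of TRIF, fell by 1.47 ± 0.19 (adjusted p = 0.000283). Of 9 negative regulators 4 were higher, led by Socs1 (4.08 ± 0.43, adjusted p = 0.000132), which blocks cytokine signals, and Sarm1 (2.23 ± 0.51, adjusted p = 0.00416), and Tollip was lower (-1.34 ± 0.21). Both counts, and that of the induced genes, are of few genes and were not tested against the share over all genes. Of 7 induced genes tested 4 were higher, Cxcl10 (4.04 ± 0.62), Nfkbiz (1.30 ± 0.36), Ptgs2 (adjusted p = 0.000219) and Tnf (adjusted p = 0.0245). Ptgs2 had 0 and 1 counts in con and 11.7 and 13.7 CPM in Ht, and Tnf had 0 to 2 counts in con and 0.905 to 1.14 CPM in Ht, so that no fold is given for either. Il1b was not called from con to Ht (-0.96 ± 0.79, adjusted p = 0.31) and was called lower from Mt to Ht (-2.79 ± 0.70, adjusted p = 0.0242). The latter call was lost without either Ht sample (-2.35, adjusted p = 0.204, and -3.32, adjusted p = 0.115). These genes respond to many other signals as well.

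Of the induced genes 5 of 8 were called higher in F4/80+ cells than in Mt2 tissue and 6 of 8 in CD11b+ cells, where 17.2% and 17.6% of all genes were. Without replicate 3 of the CD11b+ cells the latter count was 4, with Cxcl10 (1.03, adjusted p = 0.0718) and Ifnb1 (2.50, adjusted p = 0.0756) no longer called. In F4/80+ cells they were led by Il1b, Tnf and Nfkbiz, with log2 fold changes of 5.47 ± 0.76, 5.44 ± 0.56 and 4.26 ± 0.45, and in CD11b+ cells by Il1b at 6.78 ± 0.81 and Tnf at 5.89 ± 0.57. Of the factors 5 of 8 were higher in F4/80+ cells, led by Irf5 (3.03 ± 0.21, adjusted p = 1.2e-07), Irf7 (2.05 ± 0.27) and Rel (1.97 ± 0.20). The regulator Tnfaip3, which the pathway switches on against itself, was higher by 4.29 ± 0.58 in F4/80+ and 4.44 ± 0.58 in CD11b+ cells. Of the 52 pathway genes of these lists, 51 were tested in tissue, and 20 were higher and 7 lower from con to Ht with a median log2 fold change of 0.38. The number called in either direction is near the share over all genes, 49.9%. In F4/80+ cells 28 were higher and 2 lower than in Mt2 tissue with a median of 1.25. The medians of the receptors themselves, 2.87 and 2.97, lay above these, and the difference was not tested. Between F4/80+ and CD11b+ cells 0 of the pathway genes tested were called.

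**Figure D5:**
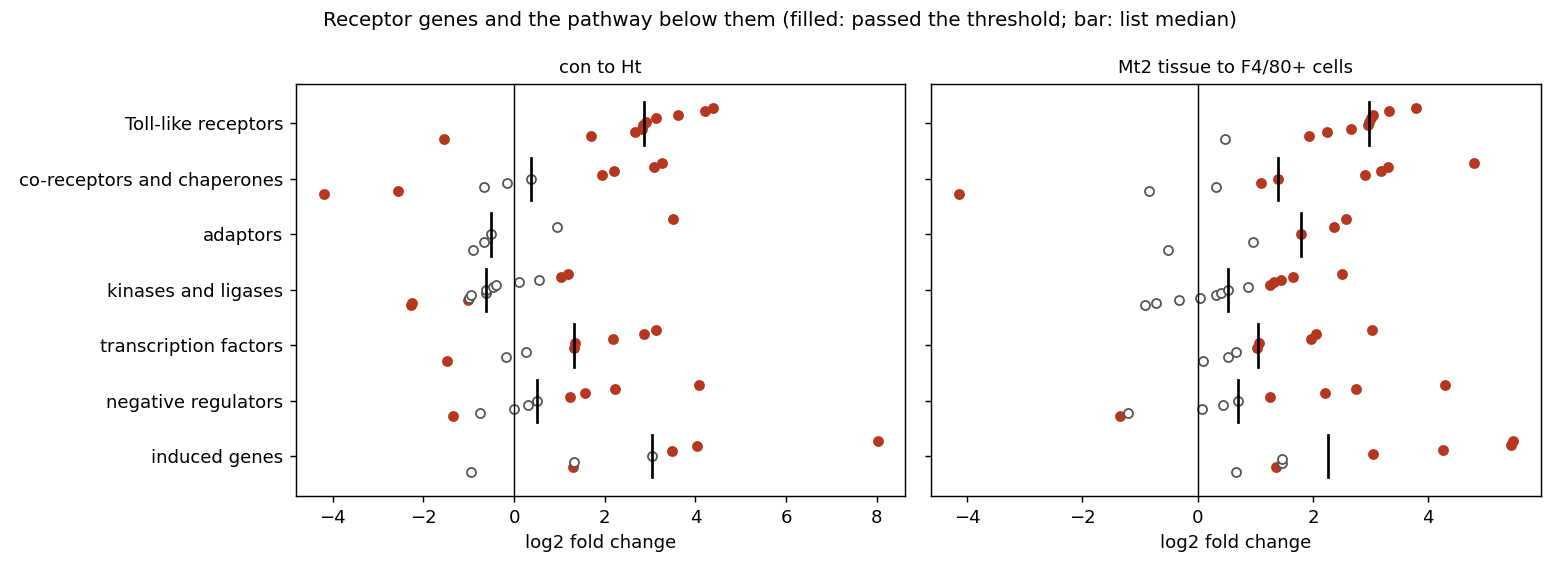
Log2 fold changes of the 10 receptor genes and of 6 lists of pathway genes, from con to Ht and from Mt2 tissue to F4/80+ cells. Each point is a gene, filled where it passed the threshold, the black bar is the median of the list, and the points of Ptgs2, Tnf and Il6 from con to Ht rest on 0 to 2 counts in con. The bar of the receptors lies at 2.87 and 2.97, and that of the kinases and ligases at -0.62 and 0.53, while that of the induced genes from con to Ht (3.04) is the point of Il6, which was not called and had 0 counts in con.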

How the data were processed

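RNA of bulk tissue and of bead-selected cells was sequenced from NEBNext Ultra libraries. The authors deposited 2 tables of raw counts per gene, made per the labels and processing notes with CASAVA, HISAT2 2.0.5 and featureCounts 1.5.0-p3 on GRCm38. The strand setting and annotation release are not given in the sources used here, and multimapping in near-identical stretches can lower counts of related genes. The tables were joined by Ensembl gene ID, because the sorted-cell table holds no gene names, and all 54532 genes had the same start and length in both. The 10 members, the gene lists and the tests were chosen with earlier results of these data known.

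Counts were tested with edgeR 4.0.16 in R 4.3.3 (TMM scaling, filterByExpr, quasi-likelihood F test, Benjamini-Hochberg adjustment over all genes tested), and calls needed an adjusted p of at most 0.05 and a log2 fold change of at least 1 in size. One fit held 13 tissue samples in 7 groups (17187 genes), one the 6 sorted libraries (14263 genes) and one all 19 samples in 9 groups (18407 genes). Ht_1 and Ht_3 were summed, because the methods describe them as identical. L-con, a single library, was described and not tested. The methods give separate livers for the tissue replicates but do not say what separates the sorted replicates, so p-values there measure only the spread between libraries. CPM were computed from the TMM-scaled library sizes and FPKM from the deposited gene lengths. The floor of 3 counts covers counting error only. Scripts were tested on simulated data.

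Named were the 10 members with Tlr11 and Tlr12, in the pathway lists Cd14, Ly96, Unc93b1, Myd88 and Ticam1 and from among the up to 3 called genes with the widest change per list and direction, the genes nearest to each member, and markers. Il1b and Nfkbiz from con to Ht, Xist and Ddx3y were added after their values were seen. Alternatives were DESeq2 1.42.0, other filters and scaling, other handling of Ht and Mt, the replicate number as a block, and leaving out each library.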

Additional observations from a re-analysis of the deposited data

Results flagged for a closer look

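The tumor-free liver of mice bearing metastases, L-con, entered no test because it was a single library at 12 dpi. In it 9 of the 10 Toll-like receptor genes lay above both con libraries, which was so for 36% of all genes tested. Among the surface receptors Tlr1 was at 3.21 CPM (con 0.579 to 1.5), Tlr2 at 7 (2.15 to 4.6), Tlr4 at 6.59 (3.14 to 4.07) and Tlr6 at 0.824, from 10 counts (0.708 to 0.744). Tlr6 was thus nearly level with con. Among the endosomal receptors Tlr3 was at 11.4 CPM (7.35 to 8.68), Tlr7 at 11.7 (2.48 to 6.28), Tlr8 at 8.90 (2.23 to 4.87), Tlr9 at 3.38 (0.661 to 1.33) and Tlr13 at 12.8 (3.14 to 5.75). Tlr5 was within the con range, at 7.58 CPM against 5.49 to 8.19. Tlr7 and Tlr8 in L-con lay within the Lt range of 10.6 to 18.0 and 6.37 to 10.5 CPM, while the other 7 lay below Lt. In the same library the macrophage markers summed to 1180 CPM (con 495 to 747) and the Kupffer cell markers to 914 (con 323 to 433). The neutrophil markers summed to 15.2 CPM, with 3 of 8 at or under 3 counts, and Adgre1 was at 87.1 CPM (con 29.5 to 47.2). Their part in the receptor levels was not tested, and no replicate of L-con was analysed here.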

How the results depend on the processing

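The number of the 10 genes called from con to Ht was 10 under every alternative except total-count scaling (9, without Tlr5) and a minimum of 10 counts in every library (7 of the 7 genes left). From con to Lt the count was 8 with DESeq2 (14.7% of all genes called), 9 without a filter (10.7%), 6 with total-count scaling (11.7%), 5 of 7 with the minimum of 10 counts (9.6%), and 5 with only these groups in the fit (14.4%), and leaving out 1 library at a time gave 0 to 7. From Mt to Ht total-count scaling called 4 (25.4% of all genes) and the fit without a fold threshold 1 (Tlr4; 22.6%), and leaving out 1 library gave 0 to 2. With total-count scaling the median of all genes moved from 0.1 to 0.4 from con to Lt, from -0.02 to 0.33 from Lt to Mt, from 0 to 0.55 from Mt to Ht and from 0.09 to 1.28 from con to Ht. That scaling leaves out the TMM factors, which were 0.686 and 0.71 in con but 1.6 and 1.58 in Ht. Why these factors differed was not tested. Leaving out 1 library gave 8 to 9 called genes in each fraction against Mt2 tissue, where Tlr5 was the gene lost. Directions that turned were all of values not called. Tlr5 from Lt to Mt was 0.116 with total-count scaling. Leaving out 1 library at a time, the log2 fold change from Lt to Mt ranged from -0.175 to 1.303 for Tlr1 and from -0.074 to 1.814 for Tlr9, that of Tlr3 in CD11b+ cells against Mt2 from -0.065 to 0.255, and those between the fractions from -0.05 to 0.241 for Tlr2, -0.001 to 0.161 for Tlr4, -0.18 to 0.863 for Tlr5 and -0.033 to 0.339 for Tlr13. Over all genes, F4/80+ against CD11b+ gave 11 calls with edgeR, 300 with DESeq2, 242 without a filter and 78 with the replicate block, and Lt to Mt gave 0, 240 with DESeq2 and 887 without a filter.

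No label or method gives samples of one replicate number a shared animal or day. With 2 numbers in the tissue groups, whether the numbers pair the samples could not be settled from the data. The correlation of the deviations of same-numbered samples was -0.149 for con with Lt, -0.098 for con with Ht, 0.281 to 0.585 for Lt with the Mt groups, -0.363 to -0.23 for the Mt groups with Ht, and -0.136 to 0.012 between the fractions, where not every sample correlated best with its own number. With the replicate block the members called were 7 from con to Lt (13.6% of all genes) and 0 from Lt to Mt (0%). They were 0 from Mt to Ht (16.5%) and 10 from con to Ht (50.1%). Between the fractions 0 were called (0.547%), and against Mt2 9 in F4/80+ (41.3%) and 9 in CD11b+ cells (42.1%). With the numbers of con and Lt exchanged, an alternative added after seeing the data, 6 were called from con to Lt (11.4%). At 16032085 counts and more per library, depth limited mainly Tlr6, Tlr9 and Tlr1 in con, with 7 to 17 counts each.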
